A study of Mus musculus with 4 samples.

Results

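Box C/D small nucleolar RNAs (snoRNAs) were examined in sorted mouse blood stem and progenitor cells. The genes were chosen by name: every array row with exactly 1 gene symbol beginning with Snord and a digit, which gave 47 of the 22180 named genes, each with 1 row. The cells were Thy1+ LSK bone marrow cells, the lineage-negative, Sca-1-positive, Kit-positive fraction in which blood stem cells are concentrated. There were 2 arrays from Nol3-/- mice labelled MPN, taken here as myeloproliferative neoplasm, and 2 from Nol3+/+ mice. All mice were on the C57BL/6 background, aged 11 to 18 months, and the cells were neither cultured nor treated. The sample labels give MPN to Nol3-/- only, while the series title can be read as giving it to both genotypes, so genotype and disease label cannot be told apart. The labels do not say how many animals stand behind an array, so p-values measure the spread between these arrays, which may be technical.

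Box C/D snoRNAs are short nucleolar RNAs named after their conserved C and D sequence boxes. With the proteins fibrillarin, Nop56, Nop58 and Snu13 they form particles that add 2'-O-methyl groups to ribosomal and spliceosomal RNA, each snoRNA pairing with its target beside box D or a related box. A few act in the cutting or acetylation of pre-ribosomal RNA instead. Most mammalian box C/D snoRNAs lie in introns of host genes, often genes for ribosomal or nucleolar proteins or non-coding host transcripts, and are trimmed from the spliced intron. Nol3 itself is named as a nucleolar protein after 1 of its human splice products, and its better known product is the apoptosis inhibitor ARC.

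Each value is the deposited signal of a gene on a log2 scale. Differences are Nol3-/- MPN minus Nol3+/+, so 1 unit is 2-fold. Genes whose mean over the 4 arrays lay under 4.835, the 25th percentile of all named genes, were called dim and not tested. This left 16635 genes for limma's moderated test, with Benjamini-Hochberg adjusted p-values over all of them and a threshold of 0.05. Of the snoRNA genes, 34 were tested and 13 were dim.

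The array medians over all rows lay between 5.35 and 5.39. Nol3 read 5.38 and 5.50 in Nol3-/- MPN and 5.31 and 5.52 in Nol3+/+. The labels do not place the deletion relative to its probes, and its level is no check of the genotype. The sort gene Kit read 8.38 and 7.39 in Nol3-/- MPN and 8.07 and 8.10 in Nol3+/+, and Thy1 read 4.64 and 5.24 against 4.74 and 5.02 in the same groups. Xist, the RNA of the inactive X chromosome, read 10.88 and 10.69 in Nol3-/- MPN and 5.43 and 5.28 in Nol3+/+, and for 11 of 13 tested genes of the Y chromosome both Nol3-/- MPN values lay under both Nol3+/+ values. Sex-linked signal, genotype and disease label therefore divide the arrays in the same way, and their parts in any difference cannot be told apart. The mean signal of 9 granulocyte and monocyte markers was 6.16 and 6.12 in Nol3-/- MPN and 6.06 and 6.55 in Nol3+/+. That of 4 mast cell and basophil markers was 6.31 and 6.66 in Nol3-/- MPN and 5.77 and 6.66 in Nol3+/+. The means of 4 megakaryocyte markers were 5.44 and 5.81 in Nol3-/- MPN and 5.65 and 5.51 in Nol3+/+. The groups of these 3 lists overlapped, while those of 3 other lists did not. The 4 B cell markers averaged 5.47 and 5.54 in Nol3-/- MPN and 5.27 and 5.29 in Nol3+/+, the 6 T and NK cell markers 5.96 and 5.94 against 5.86 and 5.8, and the 2 erythroid markers 5.82 and 5.83 against 5.74 and 5.71 in the same groups. The median difference of single genes was 0.18 for the B cell, -0.003 for the T and NK cell and 0.10 for the erythroid list. Of 6 listed erythroid markers only 2 were measured. The part of these cells in the snoRNA values was not tested.

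As a class, the box C/D snoRNA genes differed widely between the groups and as widely between replicates, with no common direction. Of the 47, 25 had a higher and 22 a lower mean in Nol3-/- MPN, with a median difference of 0.04, beside 0.00 over all genes. The mean difference reached 2-fold for 15 of them, or 31.9%, beside 1.54% of all genes, with 8 higher and 7 lower. Only 1, Snord92, passed the adjusted threshold, beside 0.024% of the genes tested. Both Nol3-/- MPN arrays lay above both Nol3+/+ arrays for 12 of the 47 (25.5%, beside 18.8% of all genes), and below them for 5 (10.6%, beside 16.4%). The group difference was larger than both replicate differences for 10 of the 47, or 21.3%, a share near the 22.4% of all genes. A lower signal in sorted cells can mean fewer cells of a kind or less RNA per cell, and bulk arrays cannot tell these apart.

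**Figure D1:**
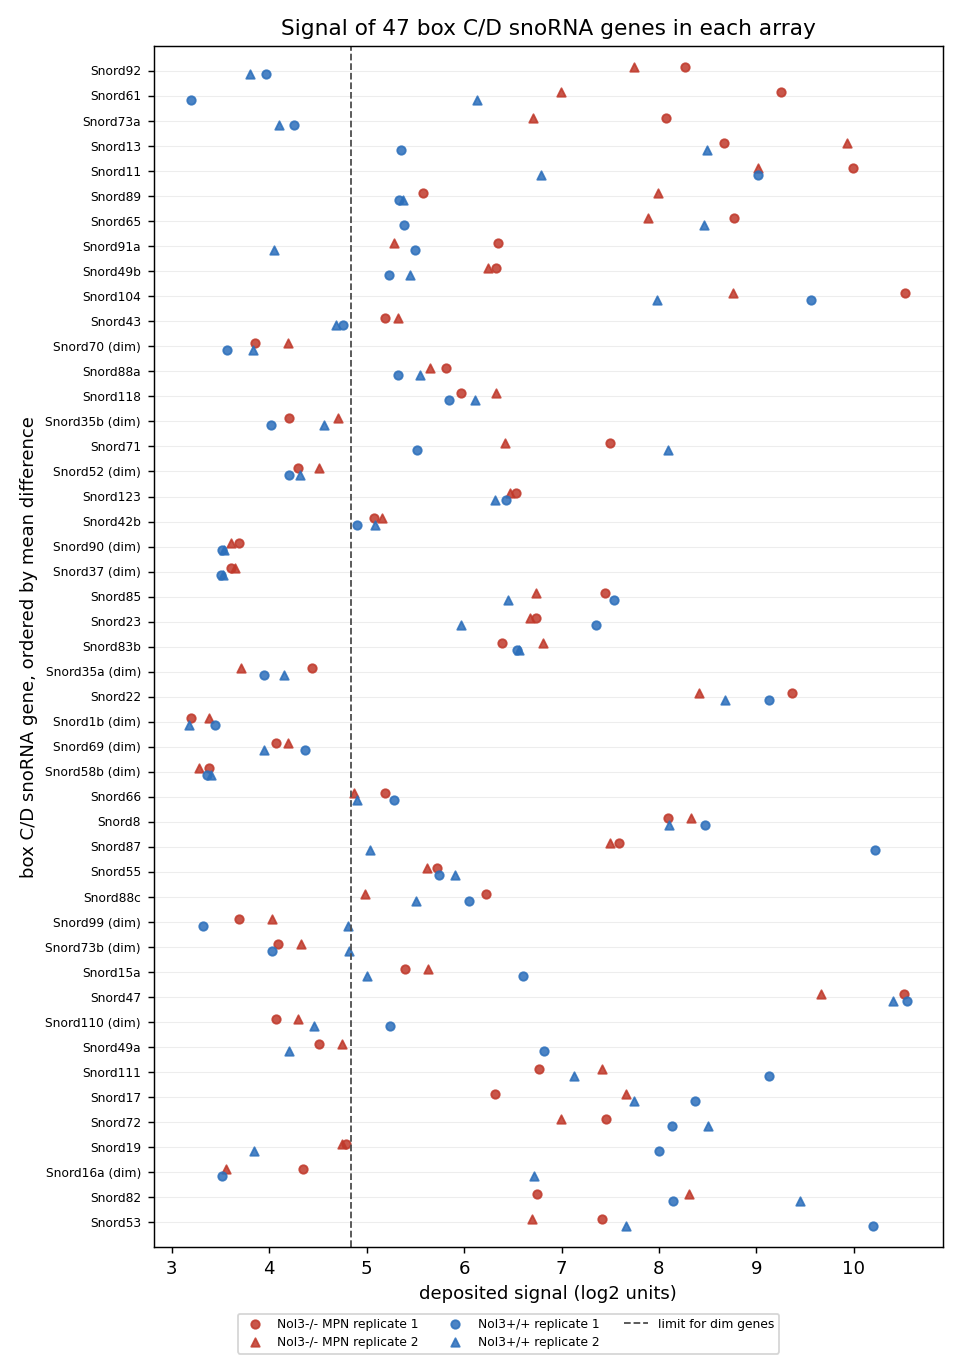
Deposited signal (horizontal axis, log2 units) of each of the 47 box C/D snoRNA genes (rows, ordered by mean difference) in the 4 arrays. Red points are Nol3-/- MPN, blue points Nol3+/+, circles replicate 1 and triangles replicate 2, and the dashed line is the limit for dim genes at 4.835. Snord92 at the top has its groups far apart, while the Nol3+/+ arrays of Snord87 lie 5.18 units apart.

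Snord92 rose in Nol3-/- MPN. In human its product guides methylation of 28S rRNA, the large-subunit RNA. It read 8.26 and 7.74 in the Nol3-/- MPN arrays and 3.96 and 3.81 in the Nol3+/+ arrays. The means were 8.0 ± 0.37 in Nol3-/- MPN and 3.88 ± 0.11 in Nol3+/+ (SD, n = 2 each). The groups were far apart and replicates close. This made a log2 difference of 4.12 (SE 0.22, 95% interval 3.56 to 4.68, limma adjusted p = 0.0329). The Nol3+/+ signals lay under the limit for dim genes, a range not told from background here, and the Nol3-/- MPN mean lay 3.17 log2 units above that limit. Snord92 was thus tested only through its Nol3-/- MPN signal, and the size of its difference is uncertain. The call was lost without either Nol3-/- MPN array (limma adjusted p = 0.345 and 0.169) and without X- and Y-linked genes (0.0646), and the difference stayed between 3.86 and 4.38 whichever array was left out.

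Snord53, a human 28S guide like Snord92, lies in the same host gene and had a lower mean in Nol3-/- MPN, without passing the test. It read 7.41 and 6.70 in Nol3-/- MPN and 10.20 and 7.67 in Nol3+/+. Its groups did not overlap, but the Nol3+/+ arrays lay 2.53 units apart, more than the group difference of -1.88 (SE 0.84, limma adjusted p = 0.841). That difference was -0.61 without Nol3+/+ replicate 1 and -3.14 without Nol3+/+ replicate 2. The host, on chromosome 17, is Wdr43, whose product belongs to the small-subunit processome that assembles on the early ribosomal transcript. Wdr43 read 9.22 and 9.59 in Nol3-/- MPN and 8.75 and 9.02 in Nol3+/+, a difference of 0.52 (SE 0.24, limma adjusted p = 0.841). The snoRNAs and their host thus gave differences of 4.12, -1.88 and 0.52, although all share a start of transcription if the annotation holds.

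Snord73a had the second smallest p among the 34 tested snoRNA genes. In human it guides methylation of 28S rRNA. It read 8.07 and 6.71 in Nol3-/- MPN and 4.25 and 4.10 in Nol3+/+. The groups did not overlap. Both Nol3+/+ values were below the limit for dim genes, in a range not told from background, and the Nol3-/- MPN mean lay 2.55 log2 units above it. The log2 difference was 3.22 (SE 0.45, unadjusted p = 6.92e-04 by limma), and the limma adjusted p of 0.460 missed the threshold. Its sister Snord73b lies in the same host and was dim, with 4.09 and 4.33 in Nol3-/- MPN and 4.02 and 4.82 in Nol3+/+. The host Rps3a1, on chromosome 3, encodes a small-subunit ribosomal protein and read 11.11 and 11.09 in Nol3-/- MPN against 11.25 and 11.20 in Nol3+/+, a difference of -0.12 (SE 0.11, limma adjusted p = 0.898). Rps3a1 belongs to a family with near-identical processed copies, so its row is uncertain.

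The 250 bases before the annotated start of these hosts are shown because Snord92 and Snord53, and likewise Snord73a and Snord73b, would be cut from 1 transcript that begins there. They come from RefSeq, build GRCm38.p6, at chr17:71615965-71616214 on the plus strand for Wdr43 and chr3:86142669-86142918 on the minus strand for Rps3a1, 5' to 3' toward the start. Capitals mark matches to CCGGAA, a form of ETS factor site, or to CACGTG, the E-box read by Myc, searched on both strands. Shorter or other forms of these sites were not searched.
Wdr43: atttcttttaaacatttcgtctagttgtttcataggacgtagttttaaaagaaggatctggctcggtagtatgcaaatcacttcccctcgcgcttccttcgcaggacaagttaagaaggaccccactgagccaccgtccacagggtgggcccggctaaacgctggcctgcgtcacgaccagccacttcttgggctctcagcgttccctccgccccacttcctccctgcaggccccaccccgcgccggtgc
Rps3a1: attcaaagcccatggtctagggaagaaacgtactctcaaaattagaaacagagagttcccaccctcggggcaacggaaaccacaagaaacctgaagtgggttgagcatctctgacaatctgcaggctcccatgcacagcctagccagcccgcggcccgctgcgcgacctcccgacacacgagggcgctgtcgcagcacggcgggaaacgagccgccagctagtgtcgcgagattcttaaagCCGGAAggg
Rps3a1 held 1 match, CCGGAA, beginning 9 bases before the start, and Wdr43 held no match to either in these bases. Over all promoter windows in the table, 12.0% held CCGGAA and 6.02% held CACGTG in the 250 bases before the start. Of the 25 windows of the 24 host genes listed there, 7 held CCGGAA and 5 held CACGTG.

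Besides Snord92 and Snord73a, 4 other snoRNA genes had an unadjusted limma p under 0.05, which makes 6 of 34 tested, beside 5.8% of the genes tested. Of the 6, 5 were higher in Nol3-/- MPN (beside 3.73% of the genes tested) and 1 was lower (beside 2.07%). For 4 of the 5 higher ones, Snord92, Snord73a, Snord61 and Snord43, the Nol3+/+ mean lay under the limit for dim genes, so they were tested only through their Nol3-/- MPN signal and the count of higher genes is no support for a direction. At least 2-fold differences at such a p numbered 4, beside 1.02% of the genes tested, with 3 higher (beside 0.631%) and 1 lower (beside 0.385%). Snord49b, a human 28S guide, read 6.32 and 6.25 in Nol3-/- MPN and 5.23 and 5.45 in Nol3+/+, with replicates close and groups apart (difference 0.95, SE 0.15, limma adjusted p = 0.651). Snord43, a human guide of 18S rRNA, the small-subunit RNA, read 5.19 and 5.32 in Nol3-/- MPN and 4.75 and 4.68 in Nol3+/+ (difference 0.54, SE 0.13, limma adjusted p = 0.841). Snord72, a human 28S guide, lies in the gene for the ribosomal protein Rpl37 and was the lower one, at 7.46 and 7.0 in Nol3-/- MPN and 8.13 and 8.51 in Nol3+/+ (difference -1.09, SE 0.28, limma adjusted p = 0.841).

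Snord61, on the X chromosome in the gene for the RNA-binding protein Rbmx, is a human 18S guide. It read 9.25 and 7.0 in Nol3-/- MPN and 3.20 and 6.13 in Nol3+/+. Its groups did not overlap, but replicates of each group lay over 2 units apart. The Nol3-/- MPN mean lay 3.29 log2 units above the limit for dim genes, while the Nol3+/+ mean of 4.66 lay under it. Only Nol3+/+ replicate 1 was in the range not told from background, and Nol3+/+ replicate 2 lay above the limit. The difference of 3.46 had an SE of 1.16 (limma adjusted p = 0.841) and ran from 1.99 without Nol3+/+ replicate 1 to 4.93 without Nol3+/+ replicate 2. Rbmx read 8.36 and 8.42 in Nol3-/- MPN and 8.31 and 7.69 in Nol3+/+, a difference of 0.39 (limma adjusted p = 0.870). As an X-linked gene Snord61 shares its chromosome with Xist, whose signal divides the arrays in the same way. Whether sex has a part in the difference of Snord61 was not tested.

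Of the snoRNAs listed as acting on rRNA cutting or acetylation, Snord13, Snord118 and Snord22 were among the members, and none passed the adjusted threshold. Snord3a, Snord3b and Snord14a to Snord14e, also listed for this role, were not among the members, so the role was not fully covered. Snord13, which in human guides acetylation of 18S rRNA, read 8.67 and 9.93 in Nol3-/- MPN and 5.35 and 8.50 in Nol3+/+. All Nol3-/- MPN values lay above the Nol3+/+ values, but the Nol3+/+ arrays were 3.15 units apart, so the difference of 2.38 (SE 1.07, limma adjusted p = 0.841) was smaller than the spread. It was 0.80 without Nol3+/+ replicate 1 and 3.95 without Nol3+/+ replicate 2. Snord118, or U8, needed for 5.8S and 28S maturation in vertebrates, read 5.97 and 6.33 in Nol3-/- MPN and 5.84 and 6.11 in Nol3+/+, with overlapping groups (difference 0.17, interval -0.35 to 0.69). Snord22, or U22, needed for 18S maturation in vertebrates, read 9.36 and 8.42 in Nol3-/- MPN and 9.12 and 8.67 in Nol3+/+ (difference -0.01, interval -0.98 to 0.96).

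Of the 11 guides of 18S rRNA, by their human targets, 6 had a higher and 5 a lower mean in Nol3-/- MPN. Snord11 read 9.99 and 9.01 in Nol3-/- MPN and 9.02 and 6.78 in Nol3+/+, a difference of 1.60 with overlapping groups, and of 0.49 without Nol3+/+ replicate 2. Snord65 read 8.77 and 7.88 in Nol3-/- MPN, and its Nol3+/+ values of 5.38 and 8.46 lay on either side. Its difference of 1.40 was -0.13 without Nol3+/+ replicate 1. Snord82 read 6.75 and 8.31 in Nol3-/- MPN and 8.14 and 9.45 in Nol3+/+, a difference of -1.26 (SE 0.67), in which each group spanned over 1.3 units, and of -0.48 without Nol3-/- MPN replicate 1. Its host is Ncl, the gene for the nucleolar protein nucleolin, which differed by 0.15. Snord19 read 4.79 and 4.74 in Nol3-/- MPN, with Nol3+/+ at 8.0 and 3.85. Its difference of -1.16 therefore rests on Nol3+/+ replicate 1, and without that array it was 0.92. The other arrays of Snord19 lay under the limit for dim genes, in a range not told from background. Snord42b and Snord66 differed by 0.12 and -0.07, with all values between 4.87 and 5.29. The limma adjusted p-values of these 6 genes lay between 0.841 and 0.973.

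Of the 22 guides of 28S rRNA, again by human targets, 9 had a higher and 13 a lower mean in Nol3-/- MPN, and the median difference was -0.04. Snord47, in the non-coding host Gas5 by its known place, had the highest mean of all box C/D snoRNA genes, 10.28, and read 10.52 and 9.67 in Nol3-/- MPN and 10.54 and 10.40 in Nol3+/+. Snord104 read 10.53 and 8.76 in Nol3-/- MPN and 9.56 and 7.98 in Nol3+/+. Its replicates lay 1.77 and 1.58 units apart, further than the groups at 0.87, a difference that was -0.01 without Nol3-/- MPN replicate 1. Snord111 read 6.77 and 7.41 in Nol3-/- MPN and 9.13 and 7.13 in Nol3+/+ (difference -1.04). Snord91a read 6.35 and 5.28 in Nol3-/- MPN and 5.49 and 4.05 in Nol3+/+ (difference 1.04). For both the groups overlapped. Without Nol3+/+ replicate 1 the difference of Snord111 was -0.04, and without Nol3+/+ replicate 2 that of Snord91a was 0.32. Snord87 had the widest replicates of all 47, with 10.21 and 5.04 in Nol3+/+ on either side of 7.59 and 7.50 in Nol3-/- MPN, and its difference of -0.08 had an interval from -4.20 to 4.04. Snord15a and Snord55 differed by -0.29 and -0.15.

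Snord71, which guides the 5.8S rRNA in human, read 7.50 and 6.42 in Nol3-/- MPN, inside its Nol3+/+ values of 5.52 and 8.09. Snord8, a human guide of the U6 spliceosomal RNA, was among the steadiest bright members, with 8.09 and 8.33 in Nol3-/- MPN and 8.47 and 8.11 in Nol3+/+ (difference -0.08, interval -0.72 to 0.56). No target is given here for the remaining 9 genes. Among them Snord17 read 6.32 and 7.67 in Nol3-/- MPN and 8.37 and 7.74 in Nol3+/+, a difference of -1.06 (limma adjusted p = 0.841), with the closest values of the groups 0.07 apart. It was -0.39 without Nol3-/- MPN replicate 1 and -1.73 without Nol3-/- MPN replicate 2. Snord89 read 5.57 and 7.99 in Nol3-/- MPN and 5.33 and 5.37 in Nol3+/+, and its difference of 1.43 was 0.22 without Nol3-/- MPN replicate 2. Snord88a, Snord123, Snord85, Snord23, Snord83b and Snord88c differed by 0.30, 0.13, 0.09, 0.05, 0.04 and -0.17.

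The 13 dim genes had differences between -1.16 and 0.32. In 11 of them all 4 arrays lay under 4.835. The exceptions were Snord16a, with 4.35 and 3.56 in Nol3-/- MPN and 3.51 and 6.71 in Nol3+/+, and Snord110, with 4.06 and 4.29 in Nol3-/- MPN and 5.24 and 4.46 in Nol3+/+. Snord16a, at a mean of 4.53, lay nearest below the limit and Snord43, at 4.99, nearest above it.

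Disagreement between replicates was the most general feature of the class. The arrays of a group lay at least 2-fold apart, in either group, for 22 of the 47 genes (46.8%), beside 4.93% of all genes. By group this held for 10 genes in Nol3-/- MPN (21.3%, beside 1.8% of all genes) and for 18 in Nol3+/+ (38.3%, beside 3.52%), with 6 genes in both. The wide pairs had no common direction. Replicate 1 was the higher array for 6 of the 10 in Nol3-/- MPN and for 11 of the 18 in Nol3+/+. The share was also higher among bright genes alone: of the 21 snoRNA genes with a mean signal of at least 6, 14 (66.7%) had such replicates, beside 9.5% of the 6502 genes at that level. Across the 34 tested snoRNA genes the replicates correlated at r = 0.81 in Nol3-/- MPN and 0.52 in Nol3+/+, beside 0.95 and 0.91 over all tested genes in the same groups. These are descriptions across genes, which share arrays. Of the 15 genes that differed at least 2-fold between the groups, 4 did so by more than both replicate differences, namely Snord92, Snord73a, Snord61 and Snord72. The Nol3+/+ means of Snord92, Snord73a and Snord61 lay under the limit for dim genes. The same share among all genes with 2-fold differences was not counted, so the 4 are no result about the class.

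**Figure D2:**
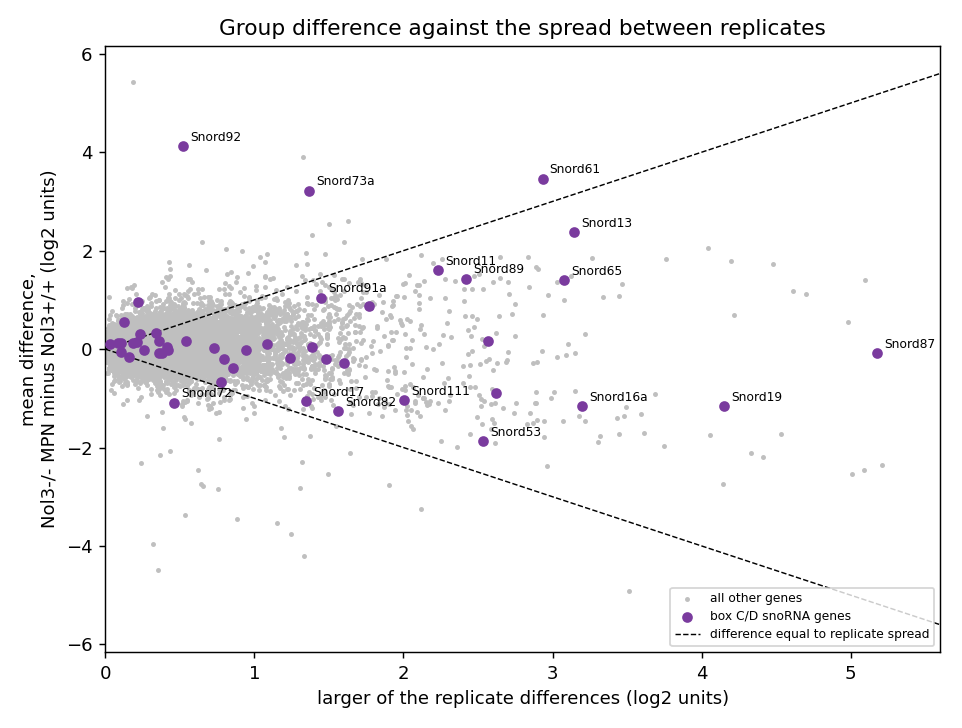
Mean difference (vertical axis, Nol3-/- MPN minus Nol3+/+, log2 units) against the larger of the replicate differences (horizontal axis, log2 units) for the 47 box C/D snoRNA genes (purple) and all other named genes (grey). Outside the dashed lines the group difference exceeds the replicate spread. Snord92, Snord73a, Snord61 and Snord72 lie outside, and the other snoRNA genes with 2-fold differences lie within.

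H/ACA snoRNAs, the other main class, which guide pseudouridylation, showed similar replicate disagreement. Of 26 genes, 12 (46.2%) had replicates at least 2-fold apart in either group, 8 in Nol3-/- MPN and 6 in Nol3+/+. Their median difference was -0.09, and 0 of 18 tested passed the limma adjusted threshold, while 3 had an unadjusted p under 0.05 (beside 5.8% of the genes tested). Of all 26, 1 lay higher in Nol3-/- MPN without overlap (3.85%, beside 18.8% of all genes) and 4 lower (15.4%, beside 16.4%). Among 472 microRNA genes the replicates of either group were 2-fold apart in 10.2%. Whether the classes differ was not tested.

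**Figure D3:**
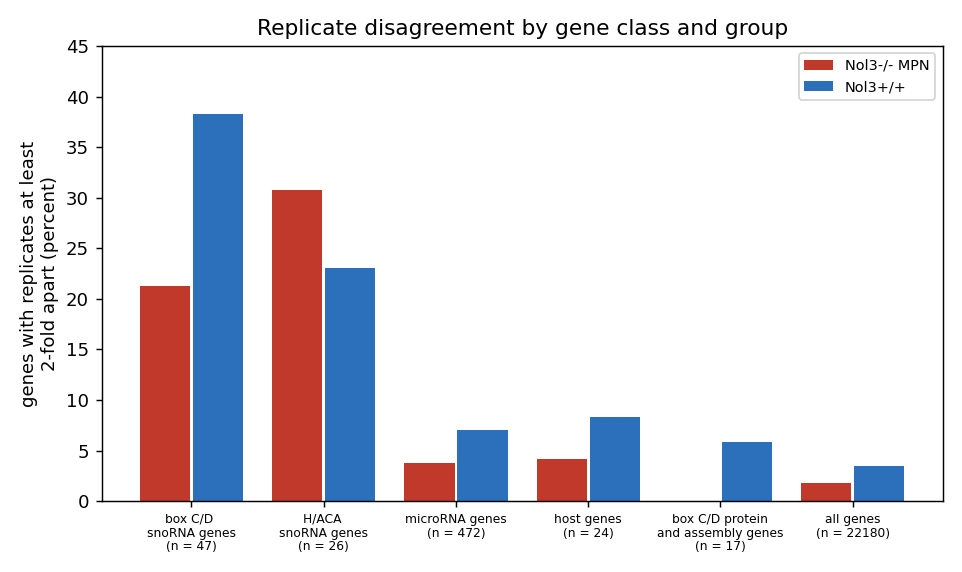
Percent of genes whose replicate arrays lay at least 2-fold apart, in Nol3-/- MPN (red) and Nol3+/+ (blue), by gene class. The bars of box C/D snoRNA genes stand at 21.3% in Nol3-/- MPN and 38.3% in Nol3+/+, and those of all genes at 1.8% and 3.52% in the same groups.

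Host genes gave differences over a narrower range than their snoRNA genes. By RefSeq coordinates, 39 of the 47 lay within exactly 1 other gene, 5 within several and 3 within none, which gave 31 host genes, 24 of them on the array under 1 symbol. Of these 24, 16 had a higher and 8 a lower mean in Nol3-/- MPN, with a median difference of 0.15 and a range from -0.95 to 0.67. None passed the limma adjusted threshold. The groups did not overlap for 10 higher (41.7%, beside 18.8% of all genes) and 3 lower (12.5%, beside 16.4%) of the 24. These shares were not tested. An unadjusted limma p under 0.05 was reached by 2 of the 24, beside 5.8% of the genes tested. They were 1110038B12Rik, a non-coding gene that holds Snord52, at 0.67, and Snhg12, a non-coding gene that holds Snord99, at -0.95. Replicates were at least 2-fold apart for 3 of the 24 (12.5%, beside 4.93% of all genes). Whether hosts and snoRNA genes differ in spread was not tested. Over 32 pairs of a snoRNA gene and its host, the differences had the same sign in 15 and opposite signs in 17. Their correlation was r = 0.07 and rho = 0.02, a description over pairs that share arrays and, in part, hosts. The median size of a difference was 0.43 for the snoRNA genes and 0.26 for the hosts, and the snoRNA difference was the larger in 20 of the 32 pairs. Dim snoRNA genes, in a range not told from background, were included in all of these counts and measures, so their signs are uncertain.

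**Figure D4:**
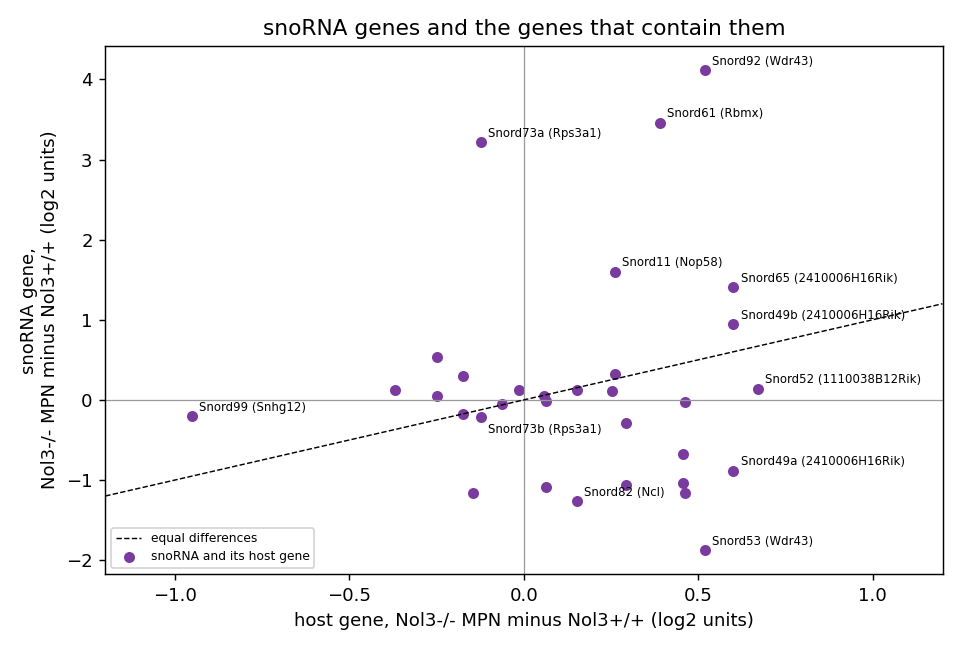
Difference of each snoRNA gene (vertical axis) against that of its host gene (horizontal axis), both Nol3-/- MPN minus Nol3+/+ in log2 units, for 32 pairs. Dim snoRNA genes are included. The hosts lie between -0.95 and 0.67 while the snoRNA genes lie between -1.88 and 4.12, and the members of Wdr43 and of Rps3a1 stand far apart above the same host value.

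Of the 7 hosts with several snoRNA genes, 3 held genes whose differences had the same sign and 4 held genes of both signs, Wdr43 and Rps3a1 among them. Rps3a1, Gnl3 and Nop58 each count a dim gene, Snord73b, Snord69 and Snord70 in that order, whose sign is uncertain. The non-coding gene 2410006H16Rik holds Snord49a, Snord49b and Snord65, which differed by -0.88, 0.95 and 1.40, while the host read 8.18 and 7.42 in Nol3-/- MPN and 7.71 and 6.68 in Nol3+/+ (difference 0.60). Snord49a read 4.52 and 4.74 in Nol3-/- MPN and 6.82 and 4.20 in Nol3+/+, so Nol3+/+ replicate 1 was the highest array for Snord49a and the lowest for Snord65. Without that array the difference of Snord49a was 0.43. The other arrays of Snord49a lay under the limit for dim genes, in a range not told from background. Snord49a and Snord49b are related copies, and cross-reading of their probes was not tested. Nop58, a core protein of these same particles, holds Snord11 and Snord70, which differed by 1.60 and 0.32, beside 0.26 for Nop58 itself. Gnl3, which encodes nucleostemin, holds Snord19 and the dim Snord69, at -1.16 and -0.03, beside 0.46 for the host. Rpl3, a large-subunit ribosomal protein gene, holds Snord43 and Snord83b, at 0.54 and 0.04, beside -0.25 for the host. The gene 2410002F23Rik holds Snord88a and Snord88c, at 0.30 and -0.17, beside -0.17 for the host.

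Of genes for box C/D particle proteins and their assembly, 17 were measured, the fibrillarin gene not among them. Of the 17, 8 had a higher and 9 a lower mean in Nol3-/- MPN. Their median difference was -0.03, and 0 passed the limma adjusted threshold. An unadjusted limma p under 0.05 was reached by 1 of the 17, beside 5.8% of the genes tested. That 1 was Snu13, the core protein that binds the kink formed by boxes C and D. It read 8.09 and 7.29 in Nol3-/- MPN and 6.15 and 6.81 in Nol3+/+, with no overlap (difference 1.21, SE 0.38, limma adjusted p = 0.841). The core proteins Nop56 and Nop58 differed by 0.46 and 0.26, also without overlap. Of the assembly factors, the ATPases Ruvbl1 and Ruvbl2 differed by 0.45 and 0.22, Nufip1 by -0.40 and Znhit3 by -0.34. Rrp9, a protein of the U3 particle, differed by -0.36 and Coil, which encodes the Cajal body protein coilin, by -0.22. The groups did not overlap for 6 higher (35.3%, beside 18.8% of all genes) and 4 lower (23.5%, beside 16.4%) of the 17, and all limma adjusted p-values lay at or above 0.841.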

How the data were processed

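The members and gene lists were chosen with earlier results of these data known. Per the labels' protocols, RNA was extracted on a column kit, amplified by single-primer isothermal amplification and hybridised to Affymetrix arrays. Recovery of RNAs as short as these (48 to 221 nt in RefSeq) was not tested, and a row cannot tell a mature snoRNA from its host precursor. The submitters' processing notes name 2 programs, Transcriptome Analysis Console and Affymetrix Expression Console. Not given in the sources used here: normalization, background correction, program versions. A single deposited table holds 41345 rows, and its values (2.84 to 13.5) were treated as log2 signals made by the authors; the log base is unstated. No detection calls or depth were used, and 4 arrays limit the precision.

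Rows were named through the platform annotation: 23521 had 1 symbol, 1814 several and 16010 none. Of those with several, 33 include a Snord symbol and were left out. For 1082 genes with several rows the brightest was used. The RefSeq table (GRCm38.p6) matched all 47 members and gave chromosomes, lengths and containing genes; it lists no strand, so hosts were taken by containment alone, although the same strand had been planned. Human targets come from general knowledge.

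The comparison of the groups used R 4.3.3 and limma 3.58.1 (lmFit, eBayes with a variance trend; 2 residual and 3.19 prior degrees of freedom), tested on simulated data. SE is limma's, SD the spread of 2 arrays, and intervals are 95%. Summaries used Python 3.11.15. Named genes were those past the threshold, the 10 higher and 10 lower with the smallest p, the 5 with the widest replicates, the 5 brightest, the rRNA-processing members, members of hosts with 3 or more, and those beside the dim limit. All members were named at least in a count. Alternatives were a replicate block, each array left out, other variance models and scalings, other dim limits, the mean of a gene's rows, and no sex-linked genes.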

Additional observations from a re-analysis of the deposited data

How the results depend on the processing

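In all, 14 alternatives were run. The count of snoRNA genes past the adjusted threshold (1) was 0 with the replicate number as a block, 0 without X- and Y-linked genes and 0 to 3 when each array was left out. Without Nol3+/+ replicate 2 the genes past the threshold were Snord92, Snord19 (difference -3.23) and Snord49a (-2.19), each on Nol3+/+ replicate 1 alone. That lone array was assumed to vary like the others. For Snord19 and Snord49a both Nol3-/- MPN values lay under the limit for dim genes, in a range not told from background. These genes were tested only through Nol3+/+ replicate 1, and the sign of their differences turned without it. For Snord92 the adjusted p was 0.0927 with the block and lay between 0.0243 and 0.345 over all alternatives. The replicate numbers share nothing but a label as far as the labels say (r = 0.05 between the replicate differences of the groups over all tested genes). The count of 2-fold differences at an unadjusted p under 0.05 (4) was 9 with the block and 4 to 13 when each array was left out. Among tested members 9 lay higher and 4 lower without overlap, against 11 and 2 after quantile normalization; leaving out each array gave 12 to 18 higher and 6 to 14 lower, as fewer arrays overlap less. The share of tested members with replicates 2-fold apart (58.8%) was 29.4% to 47.1% with an array left out, where only 1 group has replicates. The H/ACA median over tested genes (-0.18) ranged from -0.35 to -0.0125 when each array was left out. The median difference of the tested members (0.07) lay between -0.01 and 0.20 with an array left out. The medians of members, hosts and protein genes moved by less than the spread between replicates under every alternative run. Of the 34 tested members, 18 kept the sign of their difference under every alternative and 16 did not.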
